A study of Mus musculus with 6 samples.

Results

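R-spondins, the Lgr receptors that bind them and the membrane ubiquitin ligases Rnf43 and Znrf3 were followed in mouse kidneys at embryonic day 12.5, with and without beta-catenin in the ureteric bud. The members were 7 genes (Rspo1, Rspo2, Rspo3, Lgr4, Lgr5, Rnf43 and Znrf3), taken as every probe set of the array whose platform annotation gives exactly 1 gene symbol and that symbol is one of these. All 7 were found among the 18194 genes named by single symbols, with 12 of the 45101 probe sets, and 0 further probe sets shared a member's symbol with another gene. Rspo1 and Rnf43 had a single probe set, and each of the other 5 genes had a brighter and a dimmer one. Of the 12 probe sets, 7 lay above the filter on dim signals and 5 below it, so each gene was tested through 1 probe set, its brightest.

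The kidneys were either normal, with no further genotype given for these mice, or beta-catenin deficient. The deficient kidneys carried a beta-catenin allele (Ctnnb1) with LoxP sites on either side of exons 2 to 6 together with the Hoxb7-Cre,Gfp transgene, whose promoter is active in the ureteric bud, so the nephron-forming mesenchyme and the stroma of these kidneys are not the cells in which the recombinase is driven. There were 3 arrays per group, each from dissected tissue that had been sorted at random into vials, and the number of animals per vial is not given. Titles and source names mark 3 samples as knockout although their description fields call them normal kidney, and the titles were followed throughout. In whole kidneys, fewer cells of a type and less RNA per cell cannot be told apart.

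R-spondins are secreted proteins that strengthen Wnt signalling. Without them, Rnf43 and Znrf3 mark Frizzled receptors and their Lrp5 and Lrp6 coreceptors for removal from the cell surface. An R-spondin held by Lgr4, Lgr5 or Lgr6 draws the ligases away, so that more Wnt receptor stays on the cell. Rnf43, Znrf3 and Lgr5 are themselves known as targets of beta-catenin in several tissues, which makes the ligases part of a feedback loop. In the developing kidney Rspo1 and Rspo3 are known from the mesenchyme, where they act on nephron progenitors, and Lgr4 is needed for a kidney of normal size.

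The values are signals as deposited, on a linear scale set by the MAS5 program, and where 3 are given for a group they follow the order of replicates 1, 2 and 3. They can be compared between arrays for 1 probe set but not between probe sets, and the number of arrays limits their precision. The 6 arrays had trimmed means between 148.7 and 149.9, and their correlations over the 27022 probe sets above the filter ran from 0.951 to 0.977. Ctnnb1 itself did not read lower in the knockout. Its brightest probe set stood at 5707, 6760 and 6549 in normal and at 6777, 6779 and 6586 in knockout kidneys, and where its probes lie relative to the LoxP sites was not analysed here. The targeted gene therefore does not check the labels. Markers of the expected tissues were present: all 8 measured ureteric bud markers, all 8 nephron progenitor markers and all 7 stromal markers lay above the filter.

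Rspo3 was the member with the clearest difference, reading higher in every knockout kidney than in any normal one, without passing the threshold. Rspo1, Znrf3 and Lgr5 lay at nearly the same level in both groups, Lgr4 read somewhat higher in the knockout, and Rnf43 somewhat lower. Rspo2 varied more among kidneys of 1 group than between the groups. By limma with Benjamini-Hochberg adjustment over all 27022 probe sets above the filter, 0 of the 7 member probe sets passed an adjusted p of 0.05, against 0.581% of all probe sets. At an unadjusted p under 0.05 there was 1 of 7, Rspo3, against 11.5% of all probe sets, a share from which nothing particular to these genes can be read. Of the 7 probe sets 3 read higher and 4 lower, with a median log2 difference of -0.02, against -0.01 over all probe sets.

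**Figure D1:**
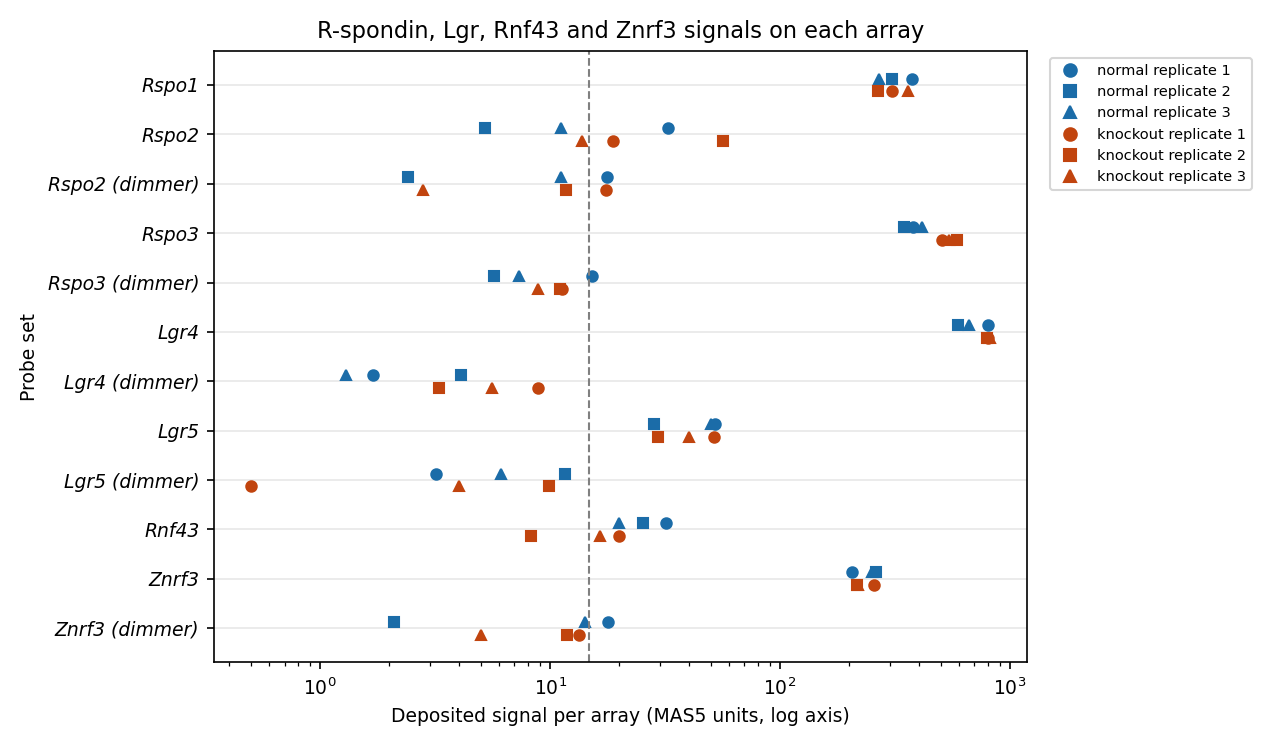
Signal of each of the 12 member probe sets (vertical axis) on each of the 6 arrays (horizontal axis, MAS5 units, log axis), with normal kidneys in blue and knockout kidneys in orange; marker shapes are replicates and the dashed line is the filter level of 14.7. The knockout points of Rspo3, from 503.7 to 587.4, lie above all normal points, from 344.8 to 416.2, whereas the groups overlap for the other 11 probe sets; positions of different probe sets on the axis are not comparable levels of the genes.

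Among the ligands, Rspo3 read 378.3, 344.8 and 416.2 in normal and 503.7, 587.4 and 541.4 in knockout kidneys. The groups did not overlap, as was true of 17.9% of all probe sets above the filter and of 9.17% in this direction. The mean was 380 ± 35.7 in normal and 544 ± 41.9 in knockout kidneys (SD, n = 3 per group). The knockout was higher by 0.52 on the log2 scale (SE 0.11), a ratio of 1.43 with a 95% interval from 1.21 to 1.69. The limma p was 0.000871 before adjustment, rank 246 of 27022, and the adjusted p was 0.0954. The spread within each group was small, with coefficients of variation of 9.41% in normal and 7.70% in knockout kidneys. The other Rspo3 probe set was dim on every array, at 15.2, 5.7 and 7.3 in normal and 11.3, 11 and 8.9 in knockout kidneys, and gives no independent reading of the gene.

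The Rspo3 difference was positive under every alternative tried, from 0.45 without normal replicate 2 to 0.59 without normal replicate 3. Its limma adjusted p ranged from 0.0793 with quantile normalization to 0.376 without knockout replicate 2. No alternative brought it under 0.05, and it counted as passed only at the looser threshold of 0.1.

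**Figure D2:**
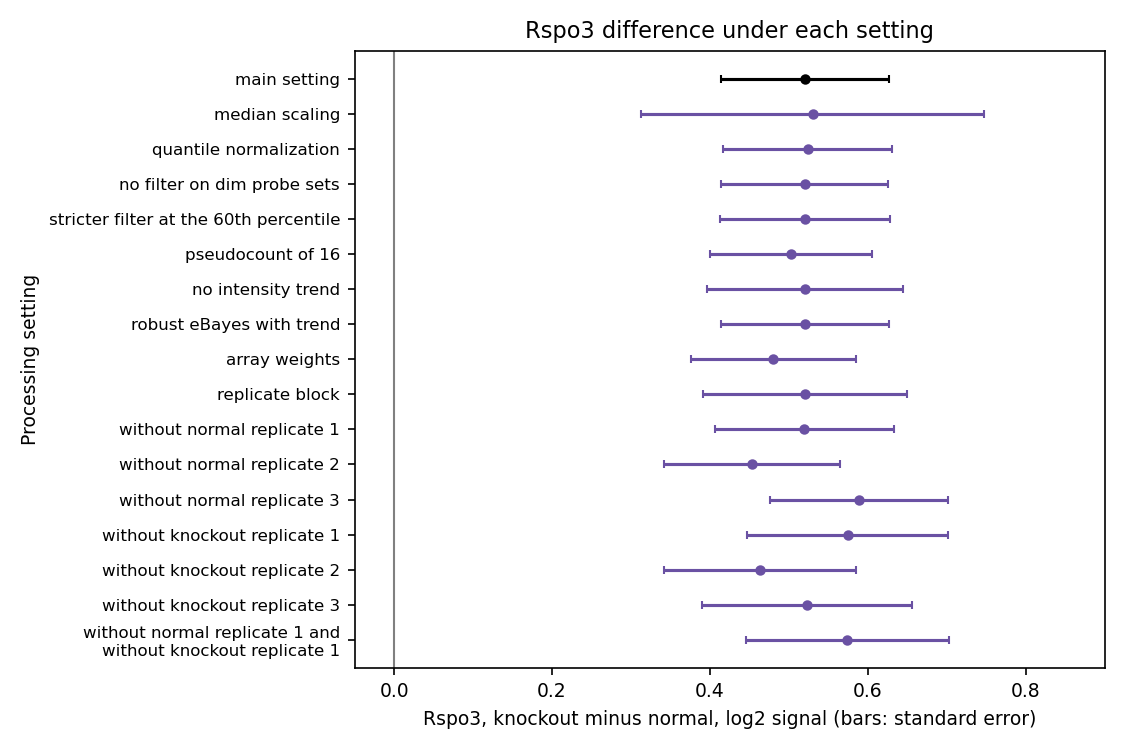
Knockout minus normal difference of Rspo3 (horizontal axis, log2 signal) under the main setting in black and 16 alternatives in purple (vertical axis); bars are standard errors from limma. All points lie between 0.45 and 0.59, and the widest bar belongs to median scaling, where the standard error was 0.22 against 0.11 in the main setting.

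Rspo1, the other R-spondin of kidney mesenchyme, gave overlapping values. It stood at 376.6, 305.3 and 268.3 in normal and 307, 266.1 and 361.3 in knockout kidneys, so both groups covered the same range. The log2 difference was -0.02 (SE 0.16; limma adjusted p = 0.970), and the 95% interval for the ratio of knockout to normal ran from 0.771 to 1.26. A shift as large as the estimate for Rspo3 lies outside this interval, but the Rspo3 interval, from 1.21 to 1.69, overlaps it.

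Whether Rspo3 shifted relative to other members was also examined within each array, a comparison chosen after the values were seen, for the 3 members with strong signals. Rspo3 minus Znrf3 was 0.88, 0.40 and 0.73 in normal and 0.97, 1.44 and 1.30 in knockout kidneys on the log2 scale, with no overlap. Rspo3 minus Lgr4 was -1.09, -0.79 and -0.68 in normal and -0.67, -0.44 and -0.59 in knockout kidneys, also without overlap but with 1 pair of arrays nearly equal. Rspo3 minus Rspo1 was 0.01, 0.18 and 0.63 in normal and 0.71, 1.14 and 0.58 in knockout kidneys, where normal replicate 3 lay above knockout replicate 3. The exact two-sided permutation p was 0.1 for Znrf3 and for Lgr4, the smallest that 3 against 3 arrays allow, and 0.2 for Rspo1. Adjusted over the 3 comparisons by Benjamini-Hochberg these exact permutation values became 0.15, 0.15 and 0.2. No outcome of this design could have passed 0.05, so the within-array comparisons are a description.

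Rspo2, a ligand best known from limb and lung development, lay on both sides of the filter level. Its brighter probe set read 32.7, 5.2 and 11.2 in normal and 18.8, 56.2 and 13.8 in knockout kidneys. The 2 highest values, knockout replicate 2 and normal replicate 1, came from different groups. The log2 difference was 0.98 (SE 0.73; limma adjusted p = 0.627), with a 95% interval for the ratio from 0.627 to 6.19. The dimmer probe set read 17.6, 2.4 and 11.2 in normal and 17.5, 11.7 and 2.8 in knockout kidneys.

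Markers of tissues other than kidney varied among the same arrays. All 10 skeletal muscle markers were measured, 8 of them above the filter, and their summed signal was 485, 417.4 and 539 in normal and 1128, 5695 and 515.8 in knockout kidneys. All 8 read higher in the knockout, with 0 passing by limma, 4 at an unadjusted limma p under 0.05 and 1 without overlap. Over all 12464 genes these shares were 0.602%, 11.7% and 19.3%. The array with the highest signal of the brighter Rspo2 probe set was also the one with the highest muscle markers. The dimmer Rspo2 probe set did not peak there, at 11.7 against 17.6 on normal replicate 1. Of the chromaffin and neural markers 8 of 9 were measured, and their sum ran from 164.3 to 1675 in normal and from 240.9 to 1193 in knockout kidneys, with normal replicate 1 the highest. Of the 7 above the filter 5 read higher and 2 lower, with 0 passing by limma, 0 at an unadjusted limma p under 0.05 and 0 without overlap. No marker of either list was at 0 on any array, and Ckm, Myh8 and Tubb3 were below the filter. The Rspo2 difference was 0.38 when knockout replicate 2 was left out, and 0.35 or 1.68 when normal replicate 2 or 1 was left out. The part of muscle or neural RNA in it was not tested.

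Of the receptors, Lgr4 was measured well and varied little among the knockout kidneys. It read 804.1, 596.7 and 664.8 in normal and 800.9, 797.3 and 814.8 in knockout kidneys. Normal replicate 1 stood at the knockout level and the other normal arrays below it. The means were 689 ± 106 and 804 ± 9.24 (SD, n = 3 per group), and the log2 difference was 0.24 (SE 0.11; limma adjusted p = 0.462), with a 95% interval for the ratio from 0.987 to 1.40. Without normal replicate 1 the difference was 0.35 (limma adjusted p = 0.155), and without normal replicate 2 it was 0.14 (limma adjusted p = 0.610). The dimmer Lgr4 probe set, at 1.7, 4.1 and 1.3 in normal and 8.9, 3.3 and 5.6 in knockout kidneys, was too weak to read a change from.

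Lgr5, known as a stem cell marker of the gut, was detected weakly. It read 52, 28.3 and 50 in normal and 51.4, 29.6 and 40 in knockout kidneys. Both groups ran from just under 30 to just over 50. The log2 difference was -0.09 (SE 0.32; limma adjusted p = 0.935), and its interval, a ratio from 0.569 to 1.55, leaves room for sizeable changes in either direction. The second Lgr5 probe set lay between 0.5 and 11.6 on all arrays.

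The ligases differed in how well they could be measured. Znrf3 read 205.9, 261.6 and 251.4 in normal and 257.2, 216.7 and 219.3 in knockout kidneys, with overlapping groups. Its log2 difference was -0.05 (SE 0.13; limma adjusted p = 0.911), and the 95% interval for the ratio ran from 0.785 to 1.19. Its dimmer probe set read between 2.1 and 17.9 in normal and between 5 and 13.4 in knockout kidneys.

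Rnf43 read 31.9, 25.4 and 19.9 in normal and 20, 8.3 and 16.4 in knockout kidneys. The groups touched, the highest knockout value being 20 and the lowest normal value 19.9. The means were 25.7 ± 6.01 in normal and 14.9 ± 5.99 in knockout kidneys (SD, n = 3 per group), the latter close to the filter level of 14.7. The log2 difference was -0.86 (SE 0.42; limma adjusted p = 0.472), with a 95% interval for the ratio from 0.287 to 1.07. It stayed negative under all 16 alternatives that could be applied to it. Its size depended on the treatment of low signals and on knockout replicate 2, at -0.44 with a pseudocount of 16 and -0.48 without that array.

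**Figure D3:**
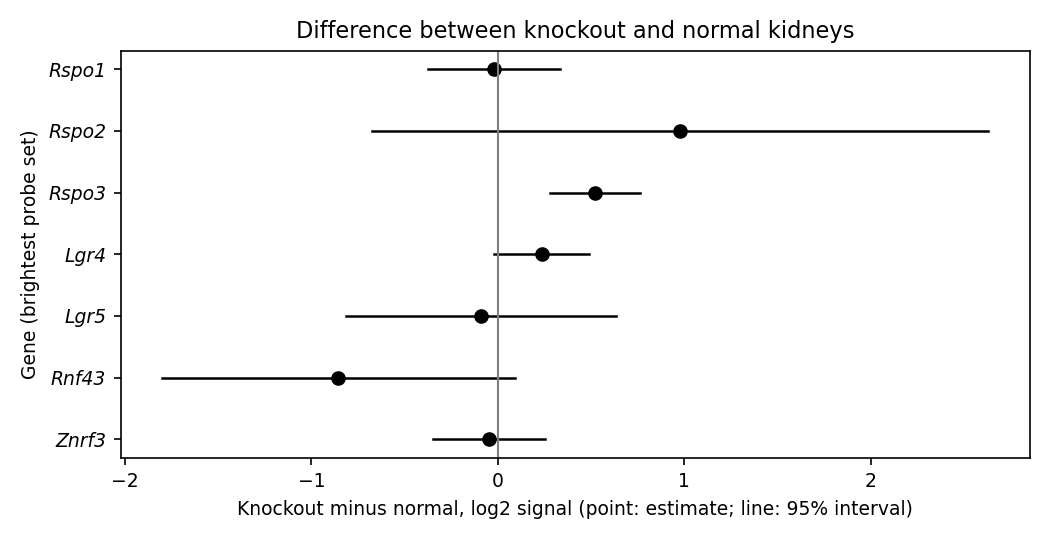
Knockout minus normal difference (horizontal axis, log2 signal) of the brightest probe set of each member gene (vertical axis), with points for the limma estimate and lines for its 95% interval, 3 arrays per group. The interval of Rspo3, from 0.28 to 0.76, is the one that leaves out 0, and those of Rspo2 and Rnf43 are the widest.

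The other genes of this step of the pathway were taken from lists chosen with earlier results of these data known. Rspo4 was below the filter, at 1.5 to 8 on all arrays. Lgr6 read 25.1, 36.2 and 24.3 in normal and 20.7, 23.8 and 24.4 in knockout kidneys by its brighter probe set (log2 difference -0.29, SE 0.29; limma adjusted p = 0.723). Its dimmer probe set had the opposite sign, at 0.76 (SE 0.41; limma adjusted p = 0.507), so the direction of Lgr6 was not settled.

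Of the 12 Frizzled and Lrp receptor genes, the surface proteins on which Rnf43 and Znrf3 act, 11 lay above the filter. By their brightest probe sets 0 of 11 passed the threshold by limma, against 0.602% of all 12464 genes, 1 reached an unadjusted p under 0.05, where 11.7% of genes did, and 4 read higher and 7 lower, with a median log2 difference of -0.07. The smallest p values belonged to Fzd4, Lrp5 and Lrp6. Fzd4, a receptor for Wnts and for norrin, stood at 0.45 (SE 0.17; limma adjusted p = 0.383), but another of its probe sets stood at -0.32 (SE 0.10; limma adjusted p = 0.303) without overlap between the groups, so its probe sets disagreed. Lrp5 read 53.6, 18.5 and 29.3 in normal and 15.4, 16.9 and 18.8 in knockout kidneys, a log2 difference of -0.86 (SE 0.41; limma adjusted p = 0.460). Its knockout values lay near the filter level of 14.7, and normal replicate 2 lay within their range.

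When all 23 probe sets of these receptors above the filter were counted, 1 passed by limma, against 0.581% of all 27022 probe sets. It was the dimmer one of Lrp6, the coreceptor that carries the Wnt signal into the cell. It read 165.2, 175.7 and 205.8 in normal and 79.3, 98.3 and 93.8 in knockout kidneys, and so fell by 1.01 on the log2 scale (SE 0.15; limma adjusted p = 0.0253). The ratio of knockout to normal was 0.497, with a 95% interval from 0.392 to 0.630, and the groups did not overlap. Its limma adjusted p rose above 0.05 when normal replicate 2 (0.0683), normal replicate 3 (0.0916) or knockout replicate 1, 2 or 3 (0.108, 0.0861 and 0.0931) was left out, when replicate 1 of both groups was (0.120) and without the intensity trend (0.108), with log2 differences from -1.07 to -0.92. The brighter Lrp6 probe set did not follow it. That probe set read 667.4, 641 and 573.5 in normal and 537.6, 616.1 and 529.9 in knockout kidneys, a log2 difference of -0.16 (SE 0.10; limma adjusted p = 0.567). Which transcripts the probe sets read was not analysed here, so the fall holds for the 1 probe set and not for Lrp6 as a gene.

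Of 16 Wnt ligands 10 were tested and 0 passed by limma, against 0.602% of all genes, with a median log2 difference of -0.03. An unadjusted p under 0.05 was reached by 1, where 11.7% of genes did. That one was Wnt4, which drives mesenchyme into epithelium, at -0.95 (SE 0.22; limma adjusted p = 0.133), with the other probe set at -0.90. Wnt7a (0.34, SE 0.28) and Wnt6 (-0.26, SE 0.36) came next. Of 16 canonical targets 15 were tested and 0 passed by limma, with 5 at an unadjusted p under 0.05, 2 higher and 3 lower. These shares stand against the same 0.602% and 11.7% of all genes. The median log2 difference of the targets was -0.17, against 0.00 over all genes. The smallest p values in this list were those of Sox9, a transcription factor of bud tips, at 0.50 (SE 0.13; limma adjusted p = 0.178), of the Wnt feedback inhibitor Nkd1 at -0.43 (SE 0.13; limma adjusted p = 0.291) and of the cell cycle gene Ccnd1 at -0.30 (SE 0.09; limma adjusted p = 0.311). The 3 other Nkd1 probe sets were lower too, at -0.16, -0.82 and -0.59, whereas 1 of the 2 others of Ccnd1 was higher, at 0.11. The members known as targets stood at -0.86 (Rnf43), -0.09 (Lgr5) and -0.05 (Znrf3), and none of them passed.

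**Figure D4:**
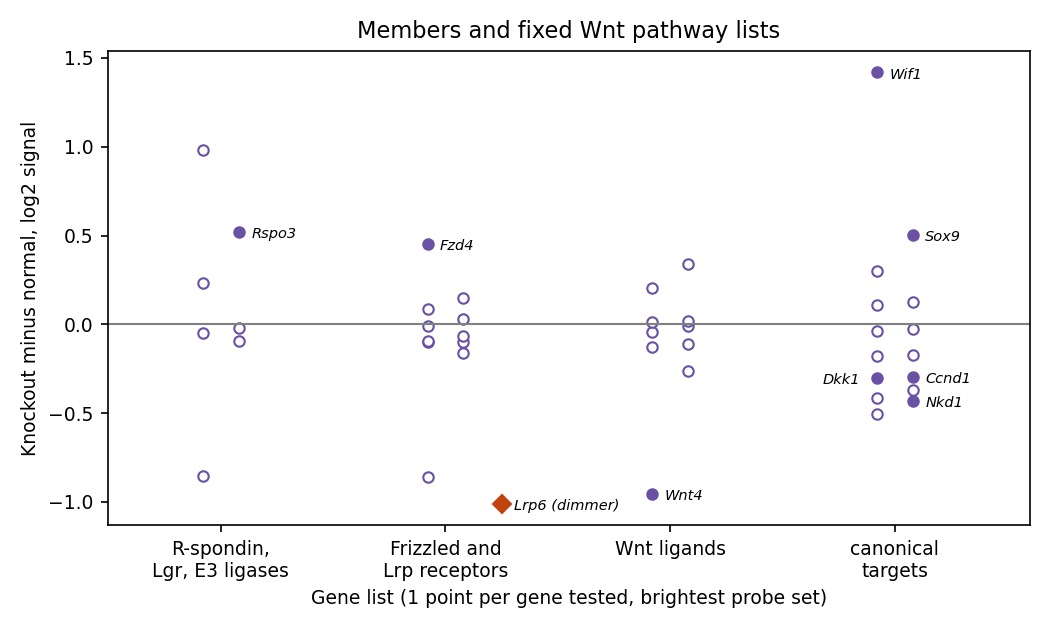
Knockout minus normal difference (vertical axis, log2 signal) of each tested gene by its brightest probe set, for the 7 members and 3 pathway lists (horizontal axis). Filled circles have an unadjusted limma p under 0.05 and open circles do not; none of the circles passed after adjustment, and the orange diamond is the dimmer Lrp6 probe set, which passed at -1.01.

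Lists of cell type markers were read on the same arrays. All 6 macrophage markers were above the filter and read higher in the knockout, with 0 passing by limma, 2 at an unadjusted p under 0.05 and 1 of them without overlap between the groups. Over all 12464 genes 0.602% passed by limma, 11.7% had an unadjusted limma p under 0.05 and 19.3% had no overlap. The counts of every marker list here stand against these shares, but the lists were chosen with earlier results of these data known. The summed signal of the macrophage markers was 750.1, 339.6 and 593.8 in normal and 757.6, 1037 and 785.8 in knockout kidneys. The sums did not overlap, although normal replicate 1 came close to the lowest knockout array. As a mean of log2 signals the list overlapped, normal replicate 1 lying at 0.54 and knockout replicate 3 at 0.48. None of these markers was at 0 on any array. All 7 renal vesicle markers, Wnt4 among them, read lower in the knockout, 5 of them without overlap, with 0 passing by limma and 5 at an unadjusted p under 0.05, and their summed signal was 2070 to 2210 in normal and 1193 to 1581 in knockout kidneys. The stromal markers, from a tissue in which Rspo3 is known to be made, had overlapping sums, 9543 to 11460 in normal and 8953 to 10674 in knockout kidneys, with 3 of 7 higher and 4 lower. By limma 0 of these 7 passed and 2 had an unadjusted p under 0.05, both without overlap: Pdgfrb, lower by a log2 difference of -0.33, and Meis1, higher by 0.30. For nephron progenitor markers the sums overlapped too, at 4512 to 5435 and 4305 to 5144, with 0 of 8 passing by limma and 3 at an unadjusted p under 0.05. Of those 3, Osr1 (log2 difference 0.61) and Meox1 (0.66) read higher without overlap and Crym (-0.38) read lower with overlap. For ureteric bud markers the sums were 3265 to 3984 and 2843 to 4471, with 0 of 8 passing by limma, 0 at an unadjusted p under 0.05 and 0 without overlap. Of 5 erythroid markers 4 were measured, none at 0 on any array, and all 4 read higher in the knockout with overlapping groups, 0 passing by limma and 2 at an unadjusted p under 0.05, Alas2 (a ratio of knockout to normal of 2.38) and Slc4a1 (1.97). Their sums were 11943, 16221 and 11929 in normal and 14420, 14414 and 17748 in knockout kidneys. These sums rest mostly on Hbb-y, at 9244 to 10465 over the arrays, and Hba-x, at 2527 to 7301. In the other lists too, a sum of linear signals gives most weight to the brightest probe sets. The part of these cell types in the Rspo3 values was not tested.

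**Figure D5:**
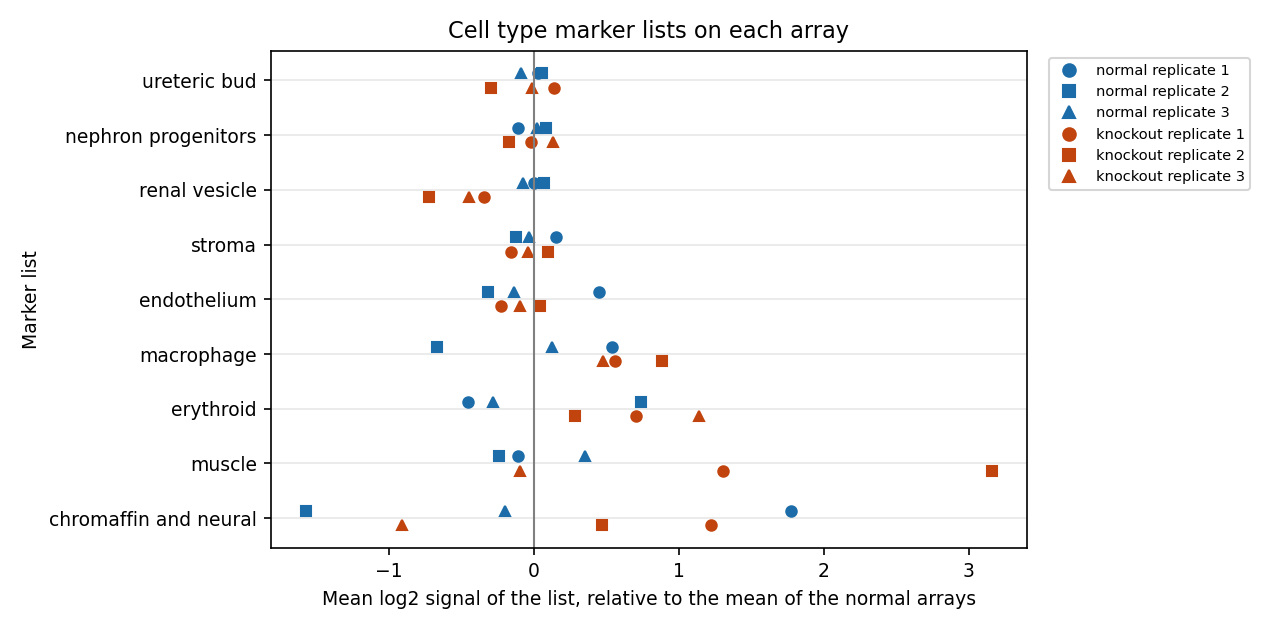
Mean log2 signal of 9 marker lists (vertical axis) on each array, as the distance from the average normal array (horizontal axis), with normal kidneys in blue, knockout kidneys in orange and marker shapes for replicates. Renal vesicle markers lie lower in all 3 knockout arrays, at -0.35, -0.72 and -0.44, muscle markers are high in knockout replicates 1 and 2, at 1.30 and 3.16, and stromal markers overlap between the groups.

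The genes whose log2 signal followed each member most closely over the 6 arrays were found among the other 12463 genes by Pearson's r, as a description. With so few arrays many genes reach a high r, and the 99th percentile over all genes was 0.940 for Rspo3 and 0.915 for Lgr4. Both groups entered each r, so genes that share a difference between the groups also reach a high r. Closest to Rspo3 were Mpeg1, a macrophage gene (0.997), the sorting nexin Snx6 (0.989) and Ggps1, an enzyme of isoprenoid synthesis (0.987). Their own knockout minus normal log2 differences were 1.07, 0.40 and 0.39. Closest to Lgr4 were Aif1, also a macrophage gene (0.991), the peptide transporter Slc15a2 (0.990) and Gm32031 (0.987). For Rspo2 the closest genes were Stc2, Smarca2 and Ptgfr (0.989 to 0.992), and for Rspo1 Cnksr3, Edem2 and Metrn (0.974 to 0.993). For Lgr5 they were Dcc, BC035044 and Pxmp2 (0.977 to 0.990), for Rnf43 Mybl2, Asb16 and Nat8l (0.985 to 0.992), and for Znrf3 Ccdc38, Selenoi and Nepro (0.979 to 0.990). No member appeared among the closest genes of another.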

How the data were processed

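RNA of whole embryonic kidneys was hybridised to 6 single-colour arrays, 3 per group, grouped by sample title. Per the submitters' processing notes, the authors used MAS5, which gave the deposited linear signal intensities; no version or parameter is stated in the labels. Array medians spanned 0.37 on the log2 scale, under the limit of 0.5, so no scaling was added. Before taking log2, a floor of 1.7 (10th percentile of signals above 0) replaced the 15 values of 0. The 64 control probe sets were left out, and of the 45037 others the 27022 with a mean log2 signal above the 40th percentile (14.7) were tested with limma 3.58.1 in R 4.3.3 (lmFit, eBayes with trend), adjusted by Benjamini-Hochberg over all of them at 0.05. Symbols came from the platform annotation, updated through gene identifiers in a GRCm38.p6 gene table. A gene stands for its brightest probe set. The fit was tested on simulated data. Members and lists were chosen with earlier results of these data known. Genes named are the members, Ctnnb1, the 3 smallest p of each pathway list, the 3 genes most correlated with each member, Rspo4 and some markers. Markers were named for an unadjusted limma p under 0.05, though not all such markers are, or, like Rspo4, for a signal below the filter. Hbb-y and Hba-x were named for their weight in the erythroid sums. These markers, the dimmer Lrp6 probe set, other probe sets of the named genes and the within-array comparisons were chosen after their values were seen. Labels call the samples biological replicates without stating separate animals, so a p-value here reflects only the spread among these samples, part of which can be technical. Alternatives covered scaling, filters, low values, the variance model, array weights, the replicate block, the threshold and leaving out arrays.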

Additional observations from a re-analysis of the deposited data

How the results depend on the processing

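Under the 17 alternatives, Rspo3 and Lgr4 stayed higher in the knockout, and Rspo2 and Rnf43 kept their direction under the 16 that could be applied, since the stricter filter removed these 2 genes and Lgr5. No member passed 0.05 by limma under any alternative; at a threshold of 0.1 there was 1, Rspo3. Directions of members near 0 were not stable. Rspo1 turned to 0.050 with array weights, 0.11 without normal replicate 1, 0.09 without knockout replicate 2 and 0.12 without replicate 1 of both groups. Lgr5 turned to 0.06 and 0.04 without normal replicates 1 and 3 and to 0.11 without knockout replicate 2, and Znrf3 to 0.018 without normal replicate 2. The lowest values with arrays left out were -0.13 for Rspo1, -0.37 for Lgr5 and -0.23 for Znrf3. Over all probe sets above the filter, 157 passed by limma. There were 434 with median scaling, 253 at a threshold of 0.1 and 41 without the intensity trend; the cause was not tested for the scaling and the trend. Leaving out 1 array gave 49 to 148, and leaving out replicate 1 of both groups 31. Pathway list genes past the threshold numbered 0, or 1 (Lrp6) with all probe sets above the filter or with no filter. Deviations of same-numbered replicates had correlations of 0.08, -0.11 and -0.20. The highest over all pairs was 0.30, for normal replicate 2 with knockout replicate 3. With 3 arrays per group these values cannot exclude a shared batch, and the labels give no pairing beyond the number. With the replicate block 109 probe sets and 0 members passed by limma, with Rspo3 at an adjusted p of 0.230 and the dimmer Lrp6 probe set at 0.0561. The dimmer Lrp6 probe set stayed lower under all 17 alternatives, from -1.08 to -0.90, and passed under 9 of them, with limma adjusted p from 0.0072 to 0.120. Low signals limit Rspo2, Lgr5 and Rnf43, whose intervals are the widest.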
